A study of Mus musculus with 11 samples.

Results

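Chemokines are small secreted proteins that direct leukocytes along concentration gradients by engaging G protein-coupled receptors on the cells they attract. The 10 chemokine ligand genes described here are *Ccl2*, *Ccl3*, *Ccl4*, *Ccl6*, *Ccl9* and *Ccl17* of the CC family and *Cxcl2*, *Cxcl10*, *Cxcl16* and *Pf4* (also called *Cxcl4*) of the CXC family. They were chosen by name as ligands that alveolar macrophages (AMs), the resident phagocytes of the lung alveoli, can make, and all 10 were found among the 12932 genes of the deposited RNA-seq table. In the lung, AMs are an early source of chemokines such as CCL3, CCL4 and CXCL2 when microbes arrive, whereas CCL6 is made by resting macrophages.

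The table holds 4 libraries of control mature AMs (mAMs), 4 of mAMs that lack retinoid X receptors (RXRs) α and β, and 3 of immature AMs (ImmAMs) that lack both receptors. Controls carried the floxed *Rxra* and *Rxrb* alleles without Cre (CD11cCre- Rxrabfl/fl), and deficient animals carried Cre as well (CD11cCre+ Rxrabfl/fl), so both alleles were floxed in every group. Cre was driven by the *Cd11c* (*Itgax*) promoter, which is also active in dendritic cells. All mice were 9 wk old, of both sexes, and mAMs were sorted as CD11b-/SiglecF+ and ImmAMs as CD11b+/SiglecF+ cells, at 40000 cells per library. No control ImmAM library was analyzed here, so in the comparison of RXR-deficient ImmAMs with control mAMs genotype and maturation stage cannot be told apart. The study's own comparison of mAMs used RXR-deficient replicates 1 to 3, so these entered the tests, and replicate 4 is given beside them.

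Between 16659960 and 37873532 reads were counted per library, and values are in CPM, that is, reads scaled to a common library size. *Rxra* was at 310–380 CPM in control mAMs, 334–419 CPM in RXR-deficient mAMs and 283–305 CPM in ImmAMs, and *Rxrb* was at 51.4–72.1, 39.3–55.3 and 31.9–35.2 CPM. These totals cover whole genes and not the floxed exons, so they do not check the deletion. All 10 listed AM markers were above 1 CPM in every group, but most were lower in ImmAMs than in control mAMs. *Siglecf*, the gene of the sorting marker, was at 244–264 CPM in control mAMs and at 19.3–19.7 CPM in ImmAMs. *Marco* was at 310–377 and 10.9–13.8 CPM, *Ear1* at 871–1029 and 14.6–16.1 CPM, and *Krt79* at 594–759 and 5.96–7.01 CPM. *Ear2*, *Fabp4*, *Car4* and *Itgax* were also lower, whereas *Pparg* and *Chil3* were not. In RXR-deficient mAMs *Krt79* was at 116–402 CPM and *Fabp4* at 42.7–79.9 CPM, below every control. *Itgam*, which encodes CD11b, was at 3.52–3.85, 3.93–9.95 and 168–174 CPM in control mAMs, RXR-deficient mAMs and ImmAMs. The interstitial macrophage markers that were in the table (5 of 8, among them *C1qa*, *C1qb*, *C1qc* and *Cx3cr1*) summed to 1.07–2.31 CPM in control mAMs, 3.55–11.2 CPM in RXR-deficient mAMs and 288–313 CPM in ImmAMs. None of the listed T cell, NK cell or fibroblast markers was in the table.

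Several of the 10 genes are neighbors. *Ccl9* (11:83572919-83578636, minus strand, GRCm38), *Ccl6* (11:83587882-83593087, minus strand), *Ccl3* (11:83647844-83649355, minus strand) and *Ccl4* (11:83662584-83664683, plus strand) follow each other on chromosome 11, with 9245 bases and no annotated gene between *Ccl9* and *Ccl6*, and 13228 bases between *Ccl3* and *Ccl4*. *Pf4* (5:90772435-90773383, plus strand) and *Cxcl2* (5:90903871-90905938, plus strand) are 130487 bases apart on chromosome 5, with *Cxcl3*, *Cxcl15* and *Cxcl1* between them. *Cxcl10* (5:92346638-92348889, minus strand) lies farther along the same chromosome. *Ccl2* (11:82035571-82037453, plus strand), *Cxcl16* (11:70453983-70459984, minus strand) and *Ccl17* (8:94810453-94812036, plus strand) lie outside these groups.

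Promoter sequences from RefSeq (GRCm38.p6), reaching from 250 bases before to 50 bases after the start of transcription, were available for 7 of the 10 genes. The promoters of the neighbors *Ccl6* (chr11:83593038-83593337, minus strand) and *Ccl9* (chr11:83578587-83578886, minus strand) are shown because they were the most alike and the transcripts of both rose in ImmAMs. Their best local alignment had 74 columns, of which 59 were identical (79.7%) and 7 were gaps, and a score of 37. The other pairs among the 21 scored between 9 and 13. Capitals mark the aligned stretch.
Ccl6: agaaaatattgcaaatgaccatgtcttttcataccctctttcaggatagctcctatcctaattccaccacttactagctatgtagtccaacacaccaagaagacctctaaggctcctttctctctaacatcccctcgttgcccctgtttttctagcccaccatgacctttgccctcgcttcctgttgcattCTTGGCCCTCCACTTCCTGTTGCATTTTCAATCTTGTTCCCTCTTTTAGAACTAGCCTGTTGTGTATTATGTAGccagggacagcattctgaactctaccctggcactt
Ccl9: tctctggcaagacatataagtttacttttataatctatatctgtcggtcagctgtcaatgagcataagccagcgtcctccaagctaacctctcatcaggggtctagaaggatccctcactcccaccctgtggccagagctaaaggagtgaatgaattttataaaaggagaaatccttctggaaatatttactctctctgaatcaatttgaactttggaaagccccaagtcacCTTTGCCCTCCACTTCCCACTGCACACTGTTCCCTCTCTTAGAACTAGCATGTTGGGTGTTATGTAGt

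The promoters of *Cxcl2* (chr5:90903649-90903948, plus strand) and *Cxcl10* (chr5:92348840-92349139, minus strand) are shown because both hold matches to the NF-kB consensus, the motif bound by a factor that switches on inflammatory genes. The log2 fold changes of the 2 genes in ImmAMs against control mAMs had opposite signs. The call of *Cxcl2* did not hold in every analysis, and that of *Cxcl10* rests on few reads. Capitals mark the matches, some of which overlap.
Cxcl2: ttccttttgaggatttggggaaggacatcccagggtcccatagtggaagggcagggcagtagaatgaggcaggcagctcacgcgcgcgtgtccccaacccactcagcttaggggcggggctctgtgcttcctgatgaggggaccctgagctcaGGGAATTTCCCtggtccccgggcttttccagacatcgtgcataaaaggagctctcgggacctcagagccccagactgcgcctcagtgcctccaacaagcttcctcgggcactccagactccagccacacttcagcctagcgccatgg
Cxcl10: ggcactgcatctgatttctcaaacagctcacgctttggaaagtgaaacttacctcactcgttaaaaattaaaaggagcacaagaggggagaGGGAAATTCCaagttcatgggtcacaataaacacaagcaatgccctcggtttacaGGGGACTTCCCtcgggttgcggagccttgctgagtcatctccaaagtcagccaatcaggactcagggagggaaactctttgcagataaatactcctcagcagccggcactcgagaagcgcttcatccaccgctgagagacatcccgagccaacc

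On both strands, the NF-kB consensus was found 2 times in *Cxcl2* (97 and 96 bases before the start), 3 times in *Cxcl10* (159, 104 and 103 bases before the start) and 1 time in *Ccl9* (35 bases before the start), against 8.18% of all 27025 promoters of the same length with a match. The interferon-stimulated response element occurred only in *Cxcl10* among the 7, 213 bases before the start (3.49% of all promoters). TGANTCA, the AP-1 motif, was found in *Ccl9* and *Cxcl10* (7.93% of all promoters). AGGTCA, the half-site of RXR and its partner receptors, was found in *Ccl3*, *Ccl6* and *Ccl17* (16.0% of all promoters). These are matches of letters in a short window and were not tested for binding.

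*Ccl6* made up most of the chemokine transcripts in every library. Per kb of exon, it stood at 1601 ± 216 CPM (SD, n = 4) in control mAMs, 2168 ± 375 CPM (n = 3) in RXR-deficient mAMs and 2155 ± 72.6 CPM (n = 3) in ImmAMs. It ranked between 11 and 24 among all 12932 genes by CPM. It took 91.1–97.4% of the summed CPM of the 10 genes, and 93.6–98.0% of the sum per kb. *Ccl9* came next in all 3 groups, at 28.1 ± 9.31, 48.1 ± 18.3 and 74.7 ± 3.67 CPM per kb.

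In control mAMs *Ccl3* followed at 6.72 ± 0.198 CPM per kb and *Cxcl2* at 2.93 ± 1.74 CPM per kb. *Cxcl16*, *Ccl4*, *Ccl17*, *Pf4* and *Cxcl10* lay between 1.23 and 0.613 CPM per kb, with ranges of single libraries that overlapped between neighbors, and *Ccl2* was last at 0.144 ± 0.182 CPM per kb. In RXR-deficient mAMs *Ccl3* was at 10.6 ± 4.44, *Cxcl2* at 3.32 ± 2.06 and *Cxcl16* at 2.32 ± 0.774 CPM per kb, and the rest lay between 1.81 (*Ccl17*) and 0.327 (*Ccl2*) CPM per kb with overlapping libraries. In ImmAMs the order changed: *Cxcl16* came directly after *Ccl9* at 37.8 ± 0.916 CPM per kb, above *Ccl3* at 13.9 ± 1.5 and *Cxcl2* at 6.39 ± 1.26 CPM per kb. *Ccl17*, *Ccl2*, *Pf4* and *Ccl4* lay between 3.40 and 2.47 CPM per kb with overlapping libraries, and *Cxcl10* was last at 0.132 ± 0.0578 CPM per kb. Without *Ccl6*, the other 9 genes summed to 75.3–138 CPM in control mAMs, 102–213 CPM in RXR-deficient mAMs and 364–385 CPM in ImmAMs.

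**Figure D1:**
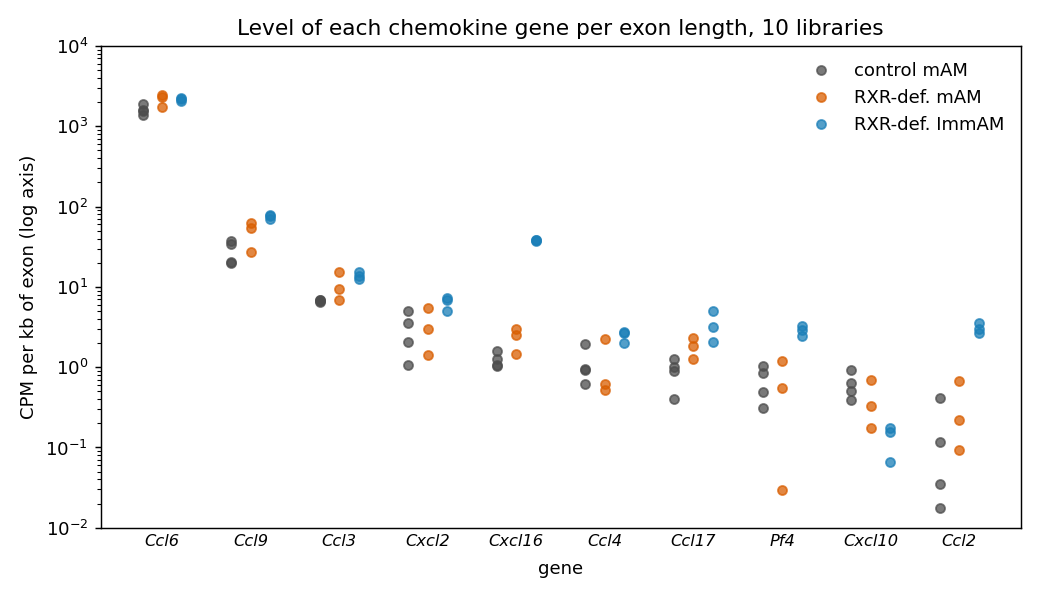
Level of the 10 chemokine genes in CPM per kb of exon (log axis), with 1 point per library for control mAMs (n = 4), RXR-deficient mAMs (n = 3) and RXR-deficient ImmAMs (n = 3), ordered by the control mean. *Ccl6* lies far above the other genes in all groups, and the 3 ImmAM points of *Cxcl16* stand near 37.8 CPM per kb, above its mAM points near 1.23 and 2.32.

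The first comparison asked whether loss of RXRs altered chemokine transcripts in mAMs. Of the 10 genes, 1 rose (*Cxcl16*) and none fell at an adjusted p under 0.05 in limma, where 4.84% of the 12889 genes tested were called in either direction, 2.25% higher and 2.59% lower. All 10 passed the filter of 1 CPM in at least 3 libraries. *Ccl2*, *Pf4*, *Ccl17* and *Ccl4* did so only through the ImmAM libraries and *Cxcl10* only through the control mAMs, so the filter favored a difference between those groups in these 5 genes. The log2 fold change was above 0 for 7 genes. Its median was 0.50 over the 10 and -0.00188 over all genes tested. edgeR also called 1 gene higher and 0 lower, and DESeq2 called 2 higher, where 4.39% and 11.3% of all genes were called. DESeq2 gave no adjusted p for *Ccl4*, *Ccl17*, *Cxcl10* and *Pf4*. Every gene with a log2 fold change below 0 in DESeq2 was among these, so DESeq2 could call none lower. The limma fits of the 2 groups alone, without a variance trend or with the replicate number as a block called 0. At an unadjusted p under 0.05 there were 4 genes, *Cxcl16*, *Ccl6*, *Ccl9* and *Ccl3*, all higher, where 23.6% of all genes passed.

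*Cxcl16* encodes a transmembrane chemokine that also acts as a scavenger receptor and attracts CXCR6+ lymphocytes once shed. It was at 4.74, 3.84, 3.10 and 3.22 CPM in the control mAM libraries and at 7.59, 4.44 and 9.0 CPM in the RXR-deficient ones, with 8.54 CPM in replicate 4. Only RXR-deficient replicate 2 lay within the control range. The rise was 1.88-fold between the means (log2 fold change 0.87, SE 0.218, adjusted p = 0.0420 in limma). The call depended on the libraries: with each of the 10 left out in turn, the adjusted p ran from 0.00238 to 0.158 and stayed under 0.05 in 2 fits, those without control replicate 1 and without RXR-deficient replicate 2. The log2 fold change stayed between 0.66 and 1.17. The adjusted p was 0.118 in the fit of the 2 groups alone, 0.0991 without a variance trend and 0.0984 with the replicate number as a block.

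*Ccl6* and *Ccl9*, which share the receptor CCR1 and attract monocytes and other myeloid cells, did not pass the test. *Ccl6* was at 2856, 3386, 2812 and 2444 CPM in control mAMs and at 4200, 3120 and 4356 CPM in RXR-deficient mAMs, with 3918 CPM in replicate 4. Replicate 2 lay below the highest control and the other RXR-deficient libraries lay above all controls. Its log2 fold change was 0.43 (SE 0.125, adjusted p = 0.0651 in limma). *Ccl9* was at 114, 105, 62.0 and 60.2 CPM in control mAMs and at 166, 83.4 and 190 CPM in RXR-deficient mAMs, with 113 CPM in replicate 4. Replicates 1 and 3 were above every control, whereas replicates 2 and 4 were not (log2 fold change 0.75, SE 0.272, adjusted p = 0.118).

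*Ccl3* encodes MIP-1α, a ligand of CCR1. It varied little among control mAMs, at 5.11, 4.97, 5.20 and 5.33 CPM, and more among RXR-deficient mAMs, at 11.9, 5.29 and 7.18 CPM, with 5.89 CPM in replicate 4. Replicate 2 again lay within the control range (log2 fold change 0.57, SE 0.226, adjusted p = 0.148). Without RXR-deficient replicate 2, *Ccl6*, *Ccl9*, *Ccl3* and *Cxcl16* all passed the test, so that 4 of the 10 genes were called where 6.59% of all genes were. Replicate 2 held the lowest value of its group for these 4 genes, so leaving it out had to raise their fold changes. Without RXR-deficient replicate 1 none of them passed in limma, where 1.63% of all genes did. The adjusted p was then 0.193 for *Ccl6*, 0.292 for *Ccl9*, 0.464 for *Ccl3* and 0.132 for *Cxcl16*. Among the 3 RXR-deficient libraries, replicate 2 had the lowest value for 7 of the 10 genes.

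RXR-deficient mAM replicate 2 also had less *Cx3cr1*, a monocyte and interstitial macrophage receptor gene, than the other libraries of its group: *Cx3cr1* was at 4.69, 1.51 and 8.34 CPM in replicates 1 to 3 and at 2.31 CPM in replicate 4. *Itgam* was at 7.87, 3.93 and 9.95 CPM in these 3 libraries and at 7.81 CPM in replicate 4. *Xist*, a transcript of female cells, was at 458, 55.5 and 237 CPM, with 188 CPM in replicate 4, and at 119–539 CPM in control mAMs. With log2 *Xist* as a covariate, *Ccl6*, *Ccl9* and *Cxcl16* were called (adjusted p = 0.0346 for *Ccl6* and 0.0112 for *Ccl9* in limma), as were 6.41% of all genes. Replicate 2 was also nearest to the controls for some AM markers. *Krt79* was at 181, 402 and 116 CPM in replicates 1 to 3, 217 CPM in replicate 4 and 594–759 CPM in control mAMs. *Fabp4* was at 50.2, 79.9 and 47.3 CPM, with 42.7 CPM in replicate 4, and at 126–203 CPM in control mAMs. For *Pparg*, *Car4* and *Chil3*, replicate 2 was not the nearest. The part of other cell types, of sex or of these marker differences in the spread between these libraries was not tested.

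**Figure D2:**
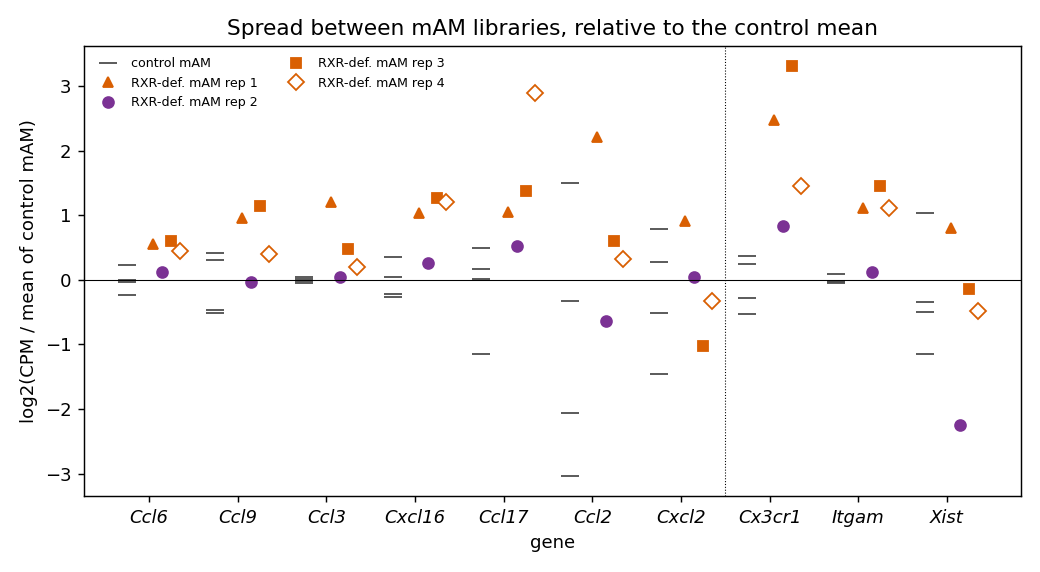
Log2 ratio of CPM in each mAM library to the mean of the 4 control mAM libraries, for 7 chemokine genes (left of the dotted line) and for *Cx3cr1*, *Itgam* and *Xist*. Dashes are control libraries and symbols are RXR-deficient replicates 1 to 4, replicate 4 being open. Replicate 2 is the lowest RXR-deficient library for *Ccl6*, *Ccl9*, *Ccl3*, *Cxcl16*, *Ccl17*, *Ccl2*, *Cx3cr1*, *Itgam* and *Xist*.

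The other genes were low in mAMs of both genotypes. *Ccl17*, which encodes a ligand of CCR4 on type 2 helper T cells, was at 0.647, 0.462, 0.206 and 0.516 CPM in control mAMs and at 0.946, 0.659 and 1.19 CPM in RXR-deficient mAMs, with 3.41 CPM in replicate 4. It was the 1 gene of the 10 whose libraries did not overlap between the groups, as did 20.1% of all genes tested, on 5 to 24 reads per library (log2 fold change 1.10, SE 0.540, adjusted p = 0.240). *Cxcl2*, a neutrophil attractant that binds CXCR2, ranged from 2.20 to 10.4 CPM in control and from 2.96 to 11.4 CPM in RXR-deficient mAMs (log2 fold change 0.20, SE 0.496). *Ccl4*, *Cxcl10*, *Pf4* and *Ccl2* had adjusted p between 0.358 and 0.878.

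**Figure D3:**
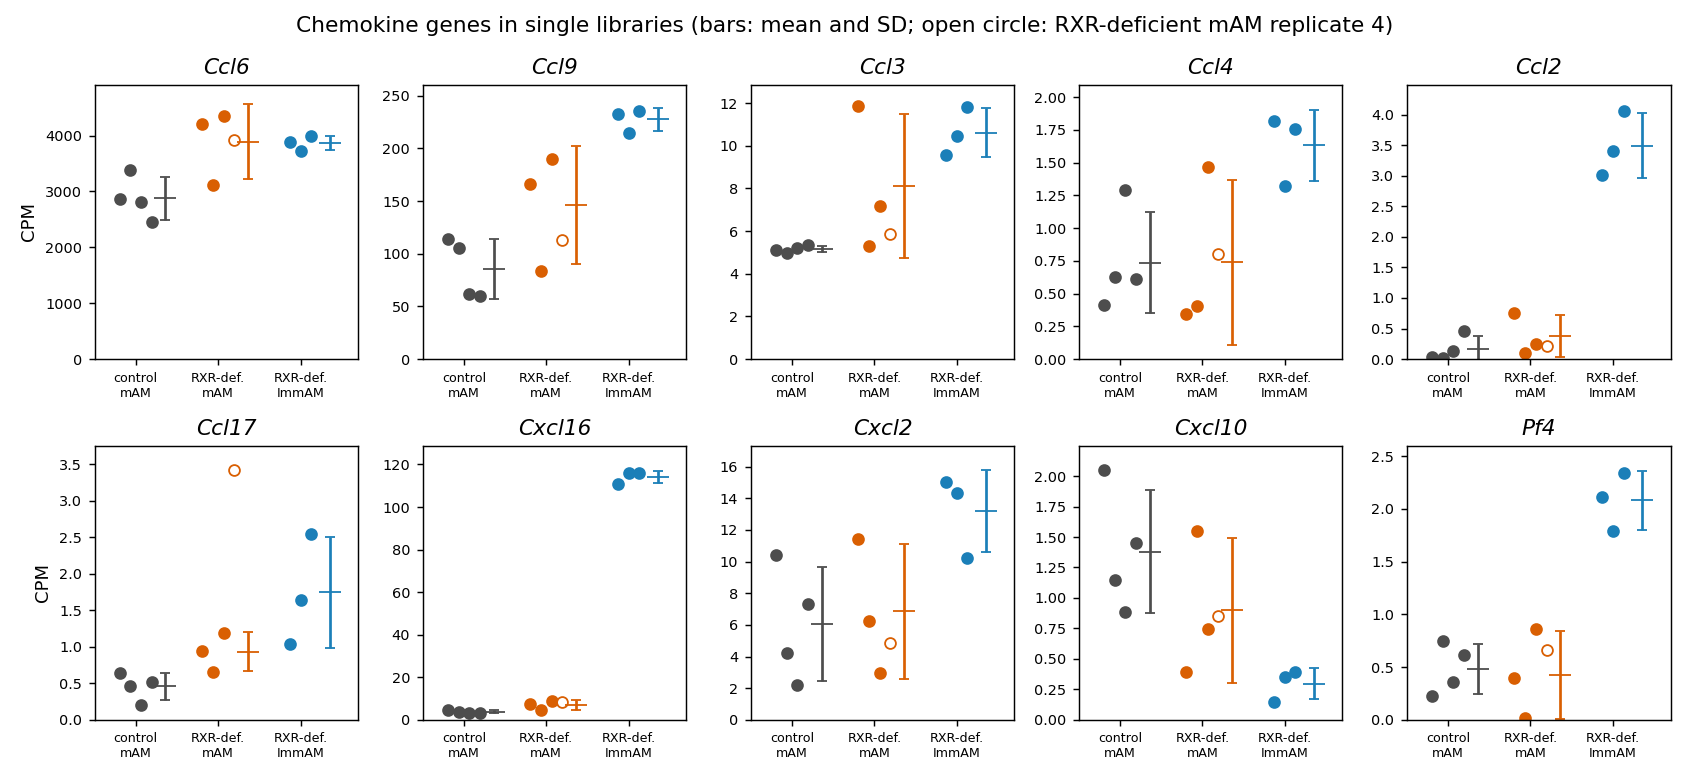
CPM of the 10 chemokine genes in each library, on linear axes from 0, with the mean and SD to the right of each group (control mAMs, n = 4; RXR-deficient mAMs, n = 3; RXR-deficient ImmAMs, n = 3). The open circle is RXR-deficient mAM replicate 4, which is not in the mean. ImmAM points of *Cxcl16* lie between 111 and 116 CPM and all mAM points lie at or below 9.0 CPM, whereas *Cxcl10* is the 1 gene with its lowest mean in ImmAMs.

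The second comparison set RXR-deficient ImmAMs, which accumulate in these animals, against control mAMs. Of the 10 genes, 7 rose and 1 fell in limma, where 48.1% of the 12889 genes tested were called, 22.8% higher and 25.3% lower. *Cxcl16*, *Ccl2*, *Ccl17*, *Ccl9*, *Cxcl2*, *Ccl3* and *Ccl6* rose and *Cxcl10* fell, and *Ccl4* and *Pf4* did not pass the test. The median log2 fold change was 1.40 over the 10 genes and -0.00254 over all genes. The libraries of the 2 groups did not overlap for 9 of the 10 genes, as for 51.3% of all genes. Since *Ccl2*, *Ccl17*, *Ccl4* and *Pf4* entered the test only through their ImmAM values and *Cxcl10* only through its control values, these counts are given as a description. edgeR and DESeq2 also called 7 higher and 1 lower, with *Pf4* in place of *Cxcl2*.

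*Cxcl16* had the clearest change. It was at 111, 116 and 116 CPM in the ImmAM libraries, against at most 4.74 CPM in control mAMs, which is 30.7-fold between the means (log2 fold change 4.96, SE 0.218, adjusted p = 1.87e-09 in limma). The adjusted p stayed at or below 1.32e-06 in all 10 other analyses of this comparison, and the log2 fold change stayed between 4.88 and 5.08 with any 1 library left out.

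*Ccl2*, which encodes MCP-1, the main CCR2 ligand for monocyte recruitment, was at 3.01, 3.41 and 4.07 CPM in ImmAMs, on 50 to 77 reads. In control mAMs it was at 0.0396, 0.0201, 0.131 and 0.467 CPM, on 0 to 9 reads, so no library of the 2 groups overlapped. The ratio of means was 21.3 (log2 fold change 5.38, SE 1.07, adjusted p = 0.00115), and the size of the fitted fold change depends on the 0.5 read that the deposited values add to each count. With 1 CPM added before taking logs, edgeR and DESeq2 the gene was also called.

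The MIP-1 relatives rose less. *Ccl9* was at 232, 215 and 236 CPM in ImmAMs, above all control libraries, or 2.66-fold (log2 fold change 1.47, SE 0.272, adjusted p = 0.000633). *Ccl6* was at 3889, 3728 and 3985 CPM, above the highest control at 3386 CPM, or 1.35-fold (log2 fold change 0.44, SE 0.125, adjusted p = 0.0113). *Ccl3* was at 9.57, 10.5 and 11.8 CPM, or 2.06-fold (log2 fold change 1.04, SE 0.226, adjusted p = 0.00210). *Ccl4*, which encodes MIP-1β, was at 1.82, 1.32 and 1.76 CPM against 0.409–1.29 CPM, and missed the threshold (log2 fold change 1.27, SE 0.590, adjusted p = 0.0939).

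*Ccl17* was at 1.04, 1.65 and 2.55 CPM in ImmAMs, on 17 to 48 reads, above all controls (log2 fold change 1.95, SE 0.540, adjusted p = 0.00941), and it was tested only because of these values. Without ImmAM replicate 4 its adjusted p was 0.0528. *Cxcl2* was at 15.1, 14.4 and 10.2 CPM, and its lowest ImmAM library lay just under the highest control at 10.4 CPM (log2 fold change 1.33, SE 0.496, adjusted p = 0.0414). Its call did not hold in edgeR (adjusted p = 0.0609) or DESeq2 (0.100). In limma it did not hold without a variance trend (0.0922) or with *Xist* as a covariate (0.0725). Leaving out control replicate 2 or 3 or any ImmAM library gave adjusted p between 0.0571 and 0.119. *Cxcl2* shares 5.32% of its 60-base windows with *Cxcl3*, so a few of its reads could belong to either gene, and *Cxcl3* was at 4.64–12.7 CPM in control mAMs and 5.36–6.12 CPM in ImmAMs.

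*Cxcl10*, an interferon-induced ligand of CXCR3, was the 1 gene that fell. It was at 2.05, 1.15, 0.882 and 1.45 CPM in control mAMs and at 0.149, 0.348 and 0.394 CPM in ImmAMs, on 2 to 7 reads (log2 fold change -2.27, SE 0.610, adjusted p = 0.00807). The gene was tested only because of its control values, so the filter favored a fall. *Pf4*, the platelet factor 4 gene, was at 0.225, 0.744, 0.357 and 0.614 CPM in control mAMs and at 2.12, 1.79 and 2.34 CPM in ImmAMs. These libraries did not overlap, and the adjusted p was 0.0925 in limma, 0.0260 in edgeR and 0.00598 in DESeq2.

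**Figure D4:**
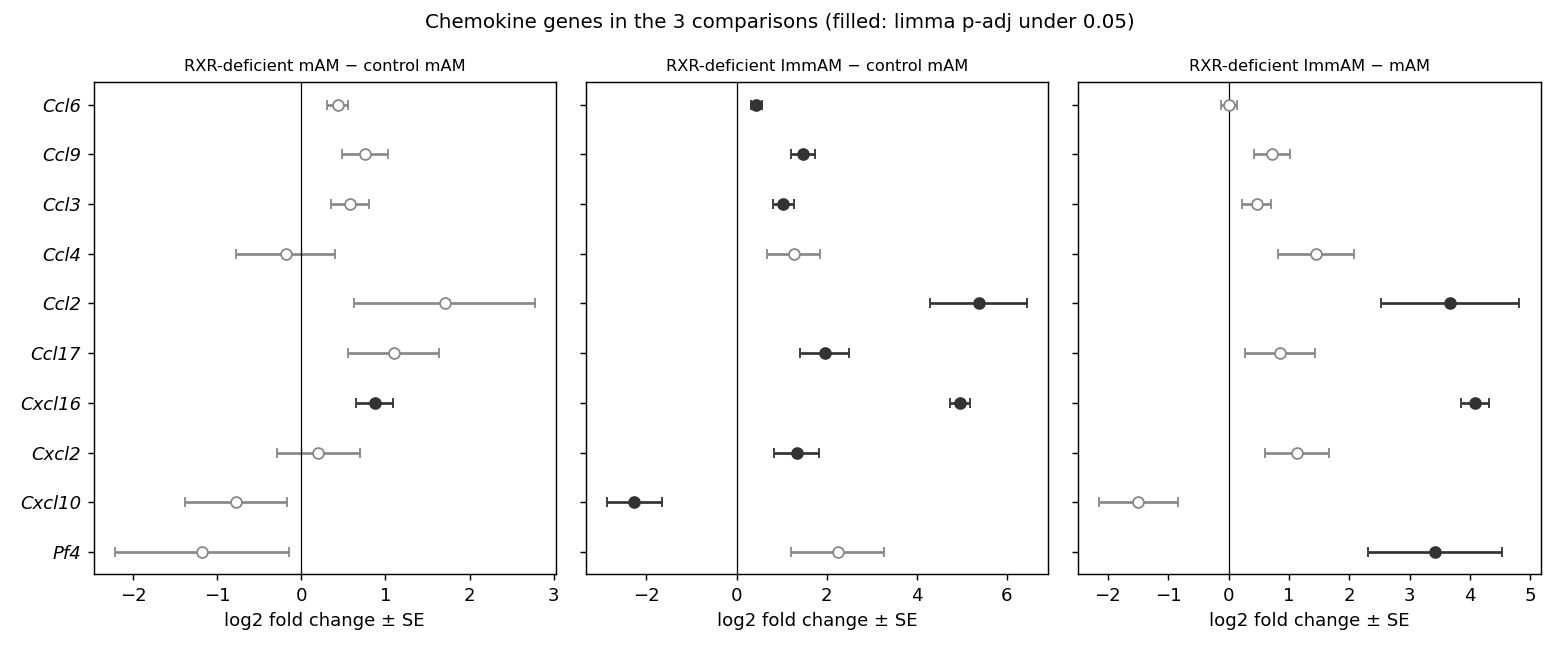
Log2 fold change ± SE of the 10 chemokine genes in the 3 comparisons, from the limma fit of 10 libraries, with filled symbols at an adjusted p under 0.05. The left panel has 1 filled symbol (*Cxcl16*), the middle panel has 8, of which *Cxcl10* is left of 0, and the right panel has 3 (*Ccl2*, *Cxcl16* and *Pf4*). The horizontal scales differ between panels.

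The third comparison set ImmAMs against mAMs within the RXR-deficient genotype. Of the 10 genes, 3 rose (*Cxcl16*, *Ccl2* and *Pf4*) and none fell in limma, where 37.9% of all genes were called, 17.7% higher and 20.2% lower. *Ccl2* and *Pf4* were tested only because of their ImmAM values, so this count too is a description. The median log2 fold change was 0.99 over the 10 genes and -0.00534 over all genes. edgeR and DESeq2 also called 3 higher and 0 lower, and 5 were higher and 1 was lower at an unadjusted p under 0.05, which 46.6% of all genes passed. The libraries did not overlap for 4 genes, *Cxcl16*, *Ccl2*, *Pf4* and *Ccl9*, as for 51.2% of all genes. The 3 comparisons share libraries with each other and are not independent.

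*Cxcl16* was 16.3-fold higher in ImmAMs than in RXR-deficient mAMs (log2 fold change 4.09, SE 0.233, adjusted p = 3.56e-08). *Ccl2*, at 0.762, 0.106 and 0.249 CPM in RXR-deficient mAMs and 0.206 CPM in replicate 4, was 9.39-fold higher in ImmAMs (log2 fold change 3.67, SE 1.15, adjusted p = 0.0230). *Pf4*, at 0.392, 0.0212 and 0.859 CPM in RXR-deficient mAMs, of which replicate 2 had 0 reads, and at 0.664 CPM in replicate 4, was 4.90-fold higher between the means (fitted log2 fold change 3.42, SE 1.11, adjusted p = 0.0270). The fit averages log values and gave a 10.7-fold difference. Its log2 fold change was 1.83 without the library with 0 reads and 4.5 without RXR-deficient replicate 3. Without RXR-deficient replicate 2, *Cxcl16* alone of the 10 stayed past the threshold, where 32.3% of all genes did, and the adjusted p was 0.0803 for *Ccl2* and 0.0515 for *Pf4*. Leaving out any ImmAM library ended both calls too, with adjusted p between 0.0565 and 0.0732, and leaving out RXR-deficient replicate 3 ended that of *Ccl2* (0.0527).

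For *Ccl6*, the mean of ImmAMs and that of RXR-deficient mAMs were 3867 and 3892 CPM, with a log2 fold change of 0.01 (SE 0.133). *Ccl9* was higher in all 3 ImmAM libraries than in any RXR-deficient mAM library but missed the threshold (log2 fold change 0.72, SE 0.291, adjusted p = 0.0684). Without RXR-deficient replicate 3 its adjusted p was 0.0291. *Ccl4*, *Cxcl10*, *Cxcl2*, *Ccl3* and *Ccl17* had adjusted p between 0.0876 and 0.271. Without RXR-deficient replicate 1, *Ccl3* (adjusted p = 0.00853), *Cxcl2* (0.0376) and *Cxcl10* (0.0392) were called as well, and without replicate 3, *Ccl4* was (0.0175). In these fits 33.9% and 34.6% of all genes were called. Replicate 1 held the highest value of its group for *Ccl3* and *Cxcl2* and the lowest for *Cxcl10*. Replicate 3 held the highest for *Ccl9* and *Ccl4*. Leaving these libraries out therefore had to enlarge the differences of these genes.

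Summed markers of other cells, given without a test, also differed in ImmAMs. Beside the interstitial macrophage sum, dendritic cell markers (3 of 8 in the table) went from 5.82–7.44 CPM in control mAMs to 21.9–25.1 CPM in ImmAMs, monocyte markers (5 of 8, without *Ly6c2*, *Plac8* and *Cd177*) from 139–148 to 183–186 CPM in sum, and neutrophil markers (4 of 8, without *Ly6g*, *Mpo*, *Elane* and *Camp*) from 6.38–11.2 to 18–25.8 CPM. The monocyte genes differed in direction, *Ccr2* being at 8.91–14.0 and 79.0–86.4 CPM in control mAMs and ImmAMs, *Treml4* at 39.8–50.7 and 2.85–3.49 CPM, and *Nr4a1* at 11.8–16.0 and 7.12–8.17 CPM. The platelet markers *Ppbp*, *Itga2b*, *Gp9*, *Gp1bb* and *Gp6* were not in the table, and the 3 that were summed to 14.6–26.3 CPM in control mAMs and 32.0–34.6 CPM in ImmAMs, most of it *Clec1b*. Of the endothelial markers, *Vwf* was at 118–145, 131–154 and 300–332 CPM in control mAMs, RXR-deficient mAMs and ImmAMs, while *Cdh5*, *Pecam1*, *Cldn5* and *Kdr* were not in the table. Eosinophil (2 of 6 in the table), B cell (1 of 6), alveolar type 2 cell (1 of 6), club and ciliated cell (1 of 4) and erythroid (2 of 4) markers summed to at most 9.21 CPM in every library. Of these, the type 2 cell marker *Napsa* was at 0.806–2.65, 1.34–4.24 and 8.53–9.21 CPM in control mAMs, RXR-deficient mAMs and ImmAMs. The part of other cells in the rise of *Cxcl16*, *Ccl2* and the other genes was not tested, and in bulk RNA more cells of a type and more RNA per cell cannot be told apart.

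Other chemokine ligands and the receptors were counted from lists, to be read against the shares of all genes called (4.84% in RXR-deficient mAMs, 48.1% in ImmAMs against control mAMs and 37.9% against RXR-deficient mAMs). Of 28 further ligand genes, 9 were in the table and tested. In RXR-deficient mAMs 1 of the 9 fell, *Cx3cl1*, the ligand of CX3CR1, from 65.8 ± 2.25 to 39.5 ± 9.19 CPM (log2 fold change -0.77, SE 0.158, adjusted p = 0.0205). In ImmAMs against control mAMs 3 of the 9 rose and 2 fell, where 22.8% and 25.3% of all genes did, and *Cx3cl1* was at 6.29 ± 1.21 CPM (log2 fold change -3.40, adjusted p = 3.03e-09). The others were *Ccl24*, *Ccl25* and *Cxcl1*, higher, and *Cxcl9*, another interferon-induced CXCR3 ligand, lower at 0.635 ± 0.464 against 1.94 ± 0.300 CPM. *Ccl24* had 0 reads in all control mAMs and 98 reads over the ImmAM libraries, at least 63.0-fold higher when 3 reads are allowed over the control group, and it passed the filter only through ImmAMs. Against RXR-deficient mAMs, 4 of the 9 were higher (*Ccl24*, *Ccl27a*, *Cxcl1* and *Cxcl14*) and 2 lower (*Cx3cl1* and *Cxcl9*). The median log2 fold change of the 9 was -0.19, 0.20 and 0.40 in the 3 comparisons.

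Of 23 chemokine receptor genes, 8 were tested (among them *Ccr1*, *Ccr2*, *Ccrl2*, *Cxcr1*, *Cxcr2*, *Cxcr4* and *Cx3cr1*). All 8 were higher in ImmAMs than in control mAMs (median of their log2 fold changes 1.84), and 6 of 8 were higher than in RXR-deficient mAMs, where 22.8% and 17.7% of all genes were higher. In edgeR 7 of the 8 were higher than in control mAMs. *Cx3cr1* rose from 0.845 ± 0.245 to 118 ± 7.28 CPM and *Ccr2*, the CCL2 receptor, from 11.4 ± 2.72 to 83.0 ± 3.75 CPM (adjusted p = 3.32e-08 and 4.41e-07 in limma). In RXR-deficient mAMs 1 of the 8, *Cx3cr1*, was higher than in control mAMs, at 4.84 ± 3.42 CPM. *Cxcr6*, the CXCL16 receptor gene, was not among those tested.

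**Figure D5:**
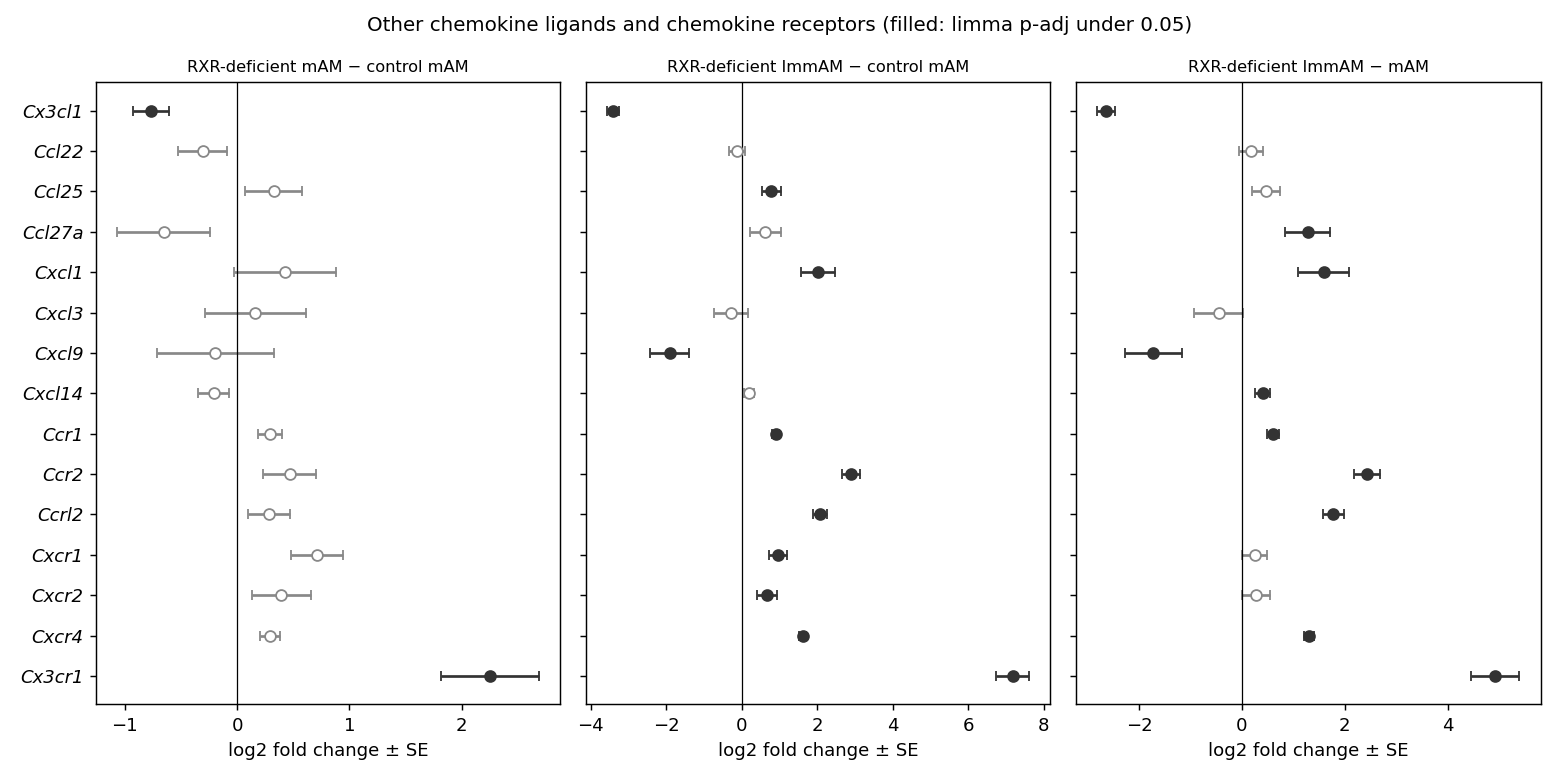
Log2 fold change ± SE of 8 other chemokine ligand genes (top, *Cx3cl1* to *Cxcl14*) and 7 chemokine receptor genes (bottom, *Ccr1* to *Cx3cr1*) in the 3 comparisons, from the limma fit of 10 libraries, with filled symbols at an adjusted p under 0.05. *Ccl24*, with 0 reads in the mAM libraries fitted, is not drawn. All 7 receptors are filled and right of 0 in the middle panel, where *Cx3cl1* is at -3.40.

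Genes of the NF-kB pathway and early inflammatory genes were counted next. Of 18 genes for NF-kB factors and their feedback inhibitors, 0 were called in RXR-deficient mAMs in limma or edgeR, and 3 were called lower in DESeq2. The shares of all genes called were 4.84% in limma, 4.39% in edgeR and 11.3% in DESeq2. At an unadjusted p under 0.05 in limma, 1 of the 18 was higher and 6 were lower, where 23.6% of all genes passed. In ImmAMs against control mAMs 6 rose, among them *Nfkbiz* (5.05 ± 2.07 to 11.4 ± 2.12 CPM) and *Nfkbid* (8.89 ± 1.26 to 17.5 ± 2.51 CPM), and 2 fell, *Ikbke* being at 14.4 ± 5.37 and 5.22 ± 0.870 CPM. Against RXR-deficient mAMs 6 rose and 0 fell. These are 8 and 6 of 18 genes, where 48.1% and 37.9% of all genes were called. Of 10 early inflammatory genes tested, 1 rose in RXR-deficient mAMs (*Csf1*, the macrophage growth factor gene), and 6 rose and 2 fell in ImmAMs in both comparisons, against the same shares of all genes. *Csf1* went from 1.02 ± 0.227 CPM in control mAMs to 40.6 ± 3.01 CPM in ImmAMs, *Ier3* from 1.10 ± 0.550 to 13.1 ± 2.29 CPM and *Tnfsf9* from 0.0584 ± 0.0278 to 5.67 ± 0.808 CPM, the last passing the filter only through ImmAMs.

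Of 13 interferon response genes tested, 0 were called in RXR-deficient mAMs in limma, edgeR or DESeq2 and 0 passed an unadjusted p of 0.05 in limma. The shares of all genes were 4.84% in limma, 4.39% in edgeR, 11.3% in DESeq2 and 23.6% at the unadjusted p. In limma 2 rose and 3 fell in ImmAMs against control mAMs, and 0 rose and 2 fell against RXR-deficient mAMs (1 rose in edgeR and DESeq2). These are 5 and 2 of 13 genes, where 48.1% and 37.9% of all genes were called. *Usp18*, 1 of the 2 that rose, passed the filter only through ImmAMs, so the filter favored its rise. Among those that fell were *Gbp2*, which encodes an interferon-induced GTPase (37.6 ± 5.62 to 20.8 ± 1.45 CPM) and, against control mAMs, *Irf1* (64.6 ± 6.56 to 49.0 ± 3.34 CPM). Of 7 genes of the response to IL-4 and STAT6, the pathway that induces *Ccl17*, *Irf4* rose in RXR-deficient mAMs (6.76 ± 1.48 to 13.5 ± 3.15 CPM, log2 fold change 0.996, adjusted p = 0.0114) and in ImmAMs (59.8 ± 5.42 CPM). In all, 1 rose and 0 fell in RXR-deficient mAMs, where 4.84% of all genes were called. In ImmAMs 4 rose and 2 fell against control mAMs, where 48.1% of all genes were called. Against RXR-deficient mAMs 3 rose and 2 fell, where 37.9% were. *Mgl2* and *Arg1*, which rose in both, passed the filter only through ImmAMs, so the filter favored their rise. *Mrc1* was lower in both (2478 ± 260, 2627 ± 30.0 and 1488 ± 53.9 CPM in control mAMs, RXR-deficient mAMs and ImmAMs). So was *Stat6* (301 ± 12.3, 288 ± 2.87 and 258 ± 4.31 CPM).

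Of 3 genes tested for chemokine shedding and storage, *Adam10*, whose protease sheds CXCL16, was at 292 ± 33.2, 331 ± 24.9 and 304 ± 19.7 CPM in control mAMs, RXR-deficient mAMs and ImmAMs and was not called. *Srgn*, the granule proteoglycan that binds chemokines, rose in ImmAMs from 57.4 ± 11.2 CPM in control mAMs to 81.3 ± 10.8 CPM, and *Adam17* was not called. Of 13 genes that cell isolation can induce, 0 rose and 1 fell in RXR-deficient mAMs (*Nr4a1*), 4 rose and 1 fell in ImmAMs against control mAMs, *Egr1* and *Jun* among the former, and 2 rose and 1 fell against RXR-deficient mAMs. The 1 of 13 called in RXR-deficient mAMs and the 5 and 3 called in ImmAMs stand against 4.84%, 48.1% and 37.9% of all genes. Their part in the chemokine values was not tested.

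For the 5 chemokine genes at a mean of 5 CPM or more in some group, the genes with the most similar pattern over the 11 libraries were sought among 10436 genes. These correlations describe libraries that share group and depth. *Cxcl16* followed *Colec12*, a scavenger receptor gene (Pearson r = 0.999), *Rtl5* (0.996) and *Itgam* (0.996). *Ccl6* followed *Tpp1* (0.979), *Lpcat2* (0.934) and *Mxi1* (0.924). *Ccl9* followed *Wdsub1* (0.974), *Sgk1* (0.970) and *Zfp318* (0.954). *Ccl3* followed *Kdm2a* (0.947), *Plekha8* (0.932) and *Nod2* (0.929), and *Cxcl2* followed *Dnajc7* (0.938), *Stx16* (0.921) and *Cbfa2t2* (0.916).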

How the data were processed

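RNA from sorted AMs was sequenced as single-end reads of 60 bases. Per the study's methods, the authors trimmed reads with Cutadapt, quantified genes on the GRCm38 transcriptome with RSEM 1.3.1 and deposited CPM on TMM-scaled library sizes after removing genes that did not reach 1 CPM in 3 samples. Within a library, each deposited CPM value equals (reads + 0.5) × a constant, which returned whole reads within 0.01 for 100% of values, and 15 rows without a gene name were kept in the fit. The labels and the methods differ on isolation (lung digestion or lavage) and sequencer. Nothing says that the libraries came from separate litters or sorts, so p-values measure the spread between these samples.

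The 10 chemokine genes, the gene lists, the marker lists and the rules for naming genes were chosen with earlier results of these data known. Groups came from the sample titles and genotype labels. The log2 of the deposited CPM of 10 libraries was fitted in limma 3.58.1 (R 4.3.3) with 3 group means, a variance trend and two-sided tests over the 12889 genes that reached 1 CPM in 3 or more of them, with Benjamini-Hochberg adjustment and a threshold of 0.05. Genes of lists are named where called and at a mean of 5 CPM or above in either group, up to 3 per list and comparison, and other called list genes were named after their values were seen. Some genes that these rules select are not reported here, and the counts include them. Alternatives were edgeR 4.0.16 and DESeq2 1.42.0 on the recovered reads, all 11 libraries, 1 CPM added, no filter, no TMM factor, only the 2 groups compared, no variance trend, *Xist* as a covariate, the replicate number as a block, and leaving out each library once. The fits were tested on simulated data. Exon lengths and positions come from GENCODE vM21 (12919 of 12932 genes found). Depth was 16659960 to 37873532 reads per library, and genes near 1 CPM carry counting error on top of replicate spread.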

Additional observations from a re-analysis of the deposited data

How the results depend on the processing

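The number of the 10 genes called in RXR-deficient mAMs against control mAMs was 1, and it became 2 in DESeq2, 3 with *Xist* as a covariate, and 0 in 3 fits: that of the 2 groups alone, that with no variance trend and that with the replicate block. With 1 library left out it ran from 0 to 4, where 1.26% to 6.68% of all genes were called. In ImmAMs against control mAMs the count of 8 became 10 in the fit of the 2 groups alone (*Ccl4* at an adjusted p of 0.0480 and *Pf4* at 0.00455) and ran from 6 to 9 with 1 library left out. The shares of all genes called were 48.1% in the fit of the 2 groups and 40.4% to 49% with 1 library left out. In ImmAMs against RXR-deficient mAMs the count of 3 became 5 in the fit of the 2 groups alone and 1 with *Xist* as a covariate, and ran from 1 to 6 with 1 library left out. Of all genes, 39.1% were called in the fit of the 2 groups, 33.8% with *Xist* and 31.8% to 41% with 1 library left out. The r of deviations between same-numbered libraries ran from -0.129 to 0.059, and not every library correlated best with its own number. Between RXR-deficient mAMs and ImmAMs only replicates 2 (r = 0.059) and 3 (r = -0.0333) could be compared. These are too few to show whether replicate numbers pair the libraries. With the replicate block, the counts were 0, 8 and 3, where 1.35%, 44.1% and 30.2% of all genes were called. In the last comparison only *Cxcl16* was shared, as *Ccl2* (adjusted p 0.0658) and *Pf4* (0.0830) were lost and *Ccl9* (0.0409) and *Cxcl2* (0.0145) gained. Log2 fold changes that reversed were not past the threshold on either side: *Ccl4* in RXR-deficient mAMs at 0.13, 0.20 and 0.09 without control replicate 3 or RXR-deficient replicate 1 or 2 (range with 1 library left out -0.84 to 0.20), *Cxcl2* at -0.21 and -0.27 without control replicate 3 or RXR-deficient replicate 1 (-0.27 to 0.71), *Pf4* at 0.41 without RXR-deficient replicate 2 (-2.26 to 0.41), and *Ccl6* between ImmAMs and RXR-deficient mAMs at -0.000467 with all 11 libraries, -0.086 with *Xist*, and -0.146 and -0.016 without RXR-deficient replicate 2 or ImmAM replicate 4 (-0.146 to 0.095). Over all genes, 4.84% were called in RXR-deficient mAMs, but 11.3% in DESeq2, 1.51% from the 2 groups alone, 0.947% with no variance trend and 1.35% with the replicate block. The causes of these changes were not tested. Depth limits *Ccl2*, *Ccl4*, *Ccl17*, *Cxcl10* and *Pf4*, whose mAM libraries held at most 77 reads of any of them.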
